A study of Mus musculus with 8 samples.

Results

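Transcripts of the tumour suppressor p53, of the genes it switches on and of the inhibitors that stop the cell cycle were followed in mouse bladder after partial outlet obstruction. The set holds 10 genes taken by symbol (Trp53, Cdkn1a, Cdkn2a, Cdkn2b, Mdm2, Ccng1, Phlda3, Zmat3, Sesn1 and Eda2r) of the 38926 symbols counted in each library. All 10 were found and all 10 passed the low-count filter of the test across genes. Cdkn2a did so on few reads, 8 to 19 in all but a single library. Bladder RNA was sequenced in 4 libraries of the NeMO group, a nerve-sparing surgical model in which the bladder outlet is partly closed, and in 4 libraries of sham-operated mice (Sham). The sources used here give no strain, sex, age or time after surgery. They do not say whether the libraries are separate animals, so every p-value measures the spread between these libraries, which may be technical.

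Library totals ran from 27212499 to 36375313 counts. A batch mark in the submitted file names puts 2 NeMO and 3 Sham libraries in batch 1 and 2 NeMO libraries (replicates 2 and 4) with 1 Sham library (replicate 4) in batch 2. All 7 smooth muscle markers and all 9 urothelial markers were detected, led by Myh11 at 13065 ± 4234.5 CPM in NeMO and 12736 ± 1209.1 CPM in Sham (mean ± SD, n = 4 each), where CPM is the reads of a gene per 1e6 reads after scaling for library composition. The 5 markers of male accessory glands and prostate summed to at most 0.139 CPM, and 3 of them were at 0 in every library. NeMO replicate 3 stood apart in its marker sums. Its 7 fibroblast markers summed to 20022 CPM, against 8162 to 12525 in the other libraries, and its 5 adipocyte markers to 324 CPM, against 617 to 2373. Its 7 smooth muscle markers were the lowest as well, at 28171 CPM against 33010 to 51979. The collagen genes Col3a1 (10536 CPM) and Col1a1 (5092 CPM) carried the fibroblast sum. Of the other fibroblast markers, Lum, Dcn and Pdgfra were highest in NeMO replicate 3, and Dpt and Pi16 were lowest there. In whole tissue, fewer cells of a type and less RNA per cell cannot be told apart.

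The p53 protein, encoded by Trp53, is held low by the ubiquitin ligase Mdm2 and accumulates after DNA damage and other stress. It then binds DNA and raises a set of genes that pause the cell cycle, repair damage or start cell death, and Mdm2 itself is among them, which closes a feedback loop. Cdkn1a encodes p21, which blocks cyclin-dependent kinases and is the best known p53 target. Cdkn2a and Cdkn2b encode the INK4 inhibitors of the kinases Cdk4 and Cdk6, and Cdkn2a also encodes ARF, which restrains Mdm2. Both are widely used as markers of senescent cells, which no longer divide.

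The p53 response element, the DNA that p53 binds, holds a pair of 10-base copies of a short degenerate motif. Only directly adjacent copies were searched for here. Copies set apart by other bases, and elements outside the windows named next, were not searched for. RefSeq start-site windows (from just upstream to just inside each start, GRCm38.p6, the assembly that mm10 names) were searched at 9 of the 10 genes. Zmat3 had no window and was not searched. An element with at most 1 mismatch, and with the fixed C and G of each copy intact, was found beside Cdkn1a and Ccng1. The mismatch allowed may fall on any other base, the A or T positions between that C and G included. The pattern reads the same on both strands, so 1 scan covers both. Among all 32851 windows, which have the same length, 22 (0.067%) held one. The sequences are shown because these are the genes for which a window of the reference carries the letters that p53 recognises, with the element in capitals.
Cdkn1a, chr17:29090898-29090977, plus strand: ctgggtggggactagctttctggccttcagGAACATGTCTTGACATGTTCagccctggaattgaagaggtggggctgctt
Ccng1, chr11:40755432-40755511, minus strand: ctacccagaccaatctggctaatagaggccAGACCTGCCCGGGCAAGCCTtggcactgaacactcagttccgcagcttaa
The Cdkn1a element begins 51 bases before the outer RefSeq start and 2841 bases before the inner one, and the Ccng1 element begins 195 bases before the start of that gene. No gene model of GENCODE release M21 covers either element. A match describes the letters in these windows only, and binding was not measured.

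On mm10, with GENCODE M21 positions, Trp53 lies on chromosome 11 (69580359 to 69591873), Cdkn1a on chromosome 17 (29090976 to 29100727) and Mdm2 on chromosome 10 (117688875 to 117710758). Cdkn2a (89274471 to 89294653) and Cdkn2b (89306299 to 89311039) are neighbours on the minus strand of chromosome 4. Ccng1 lies on chromosome 11 (40748552 to 40755311), Phlda3 on chromosome 1 (135766119 to 135769136), Zmat3 on chromosome 3 (32334792 to 32366014), Sesn1 on chromosome 10 (41809935 to 41908424) and Eda2r on chromosome X (97333840 to 97377216). All are protein-coding, and counts per symbol do not resolve exons or transcripts, so the INK4a and ARF transcripts of Cdkn2a cannot be separated. Only Cdkn1a shares exon sequence with an opposite-strand model, AC167363.2, over 273 bases.

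Per kilobase of the longest transcript, Ccng1 and Phlda3 were the most abundant of the set, with means over the 8 libraries of 67.3 and 62.0 CPM per kb. Their ranges overlapped (55.8 to 81.7 and 42.1 to 93.6), and Ccng1 was the higher of the pair in 6 of 8 libraries. Cdkn1a (34.8) and Mdm2 (29.2) came next, and then Trp53 (18.9), Sesn1 (16.7) and Cdkn2b (13.2). Cdkn1a exceeded Mdm2 and Trp53 exceeded Sesn1 in 7 of 8 libraries each, while Sesn1 exceeded Cdkn2b in 8 of 8. Zmat3 followed at 8.63 and Eda2r at 2.05 CPM per kb. Cdkn2a was the least abundant at 0.798, and in 7 of 8 libraries it lay below Eda2r.

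**Figure D1:**
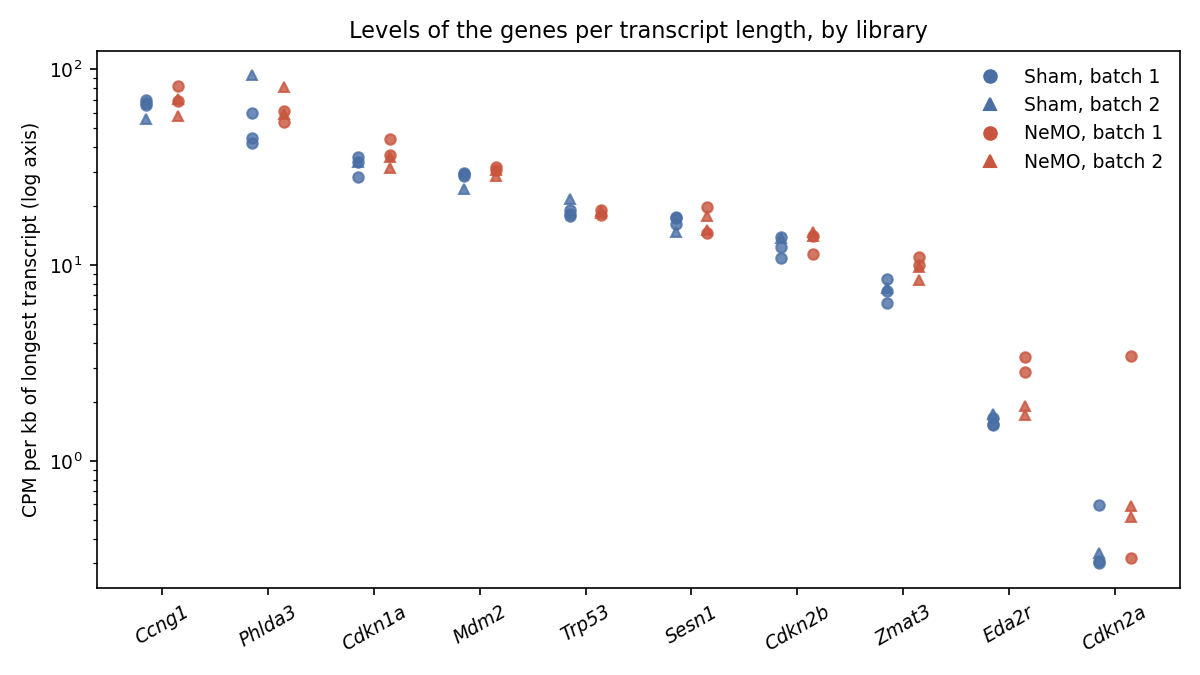
Level of each gene in each library in CPM per kilobase of longest transcript (log axis), ordered by the mean over the 8 libraries. Points are libraries, coloured by group and shaped by batch; Ccng1 and Phlda3 are at the top, and 1 NeMO point of Cdkn2a lies at 3.42 while its other points lie below Eda2r.

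The design holds a single comparison, NeMO against Sham. The largest differences in the set were higher levels of Cdkn2a, Eda2r and Zmat3 in NeMO, and the differences of Cdkn1a, Ccng1 and Mdm2 were at most 1.14-fold. Cell type markers also differed between the groups. All 5 adipocyte markers were lower in NeMO (median log2 fold change −1.18), as were all 7 markers of nerve and Schwann cells (−0.66) and 8 of 9 urothelial markers (−0.33). None of these passed edgeR after adjustment (3, 3 and 6 had p under 0.05 before it, all lower), and DESeq2 passed 2, 0 and 4. Their part in the differences described here was not tested. None of the 10 genes passed edgeR's quasi-likelihood test at an adjusted p of 0.05 over all genes, where 0.0733% of the 16370 genes tested passed (0.0428% higher and 0.0305% lower). Before adjustment, at p under 0.05 in edgeR, 4 of the 10 were higher (Zmat3, Eda2r, Cdkn2a and Mdm2) and 0 lower, beside 9.38% of all genes higher and 9.14% lower. That count was 2 without Sham replicate 1, without Sham replicate 2 and with no batch term, and the Cdkn2a difference rests on NeMO replicate 3, as given below. DESeq2 with the same terms passed 2 of the 10, Zmat3 and Eda2r, both higher, beside 3.32% of all genes higher and 2.5% lower. In no gene of the set were the 4 NeMO libraries free of overlap with the 4 Sham libraries, while 4.39% of all genes were higher and 3.81% lower without overlap. The median log2 fold change of the 10 was 0.16 (8 higher, 2 lower), against −0.01 over all genes tested, of which 48.3% were higher.

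**Figure D2:**
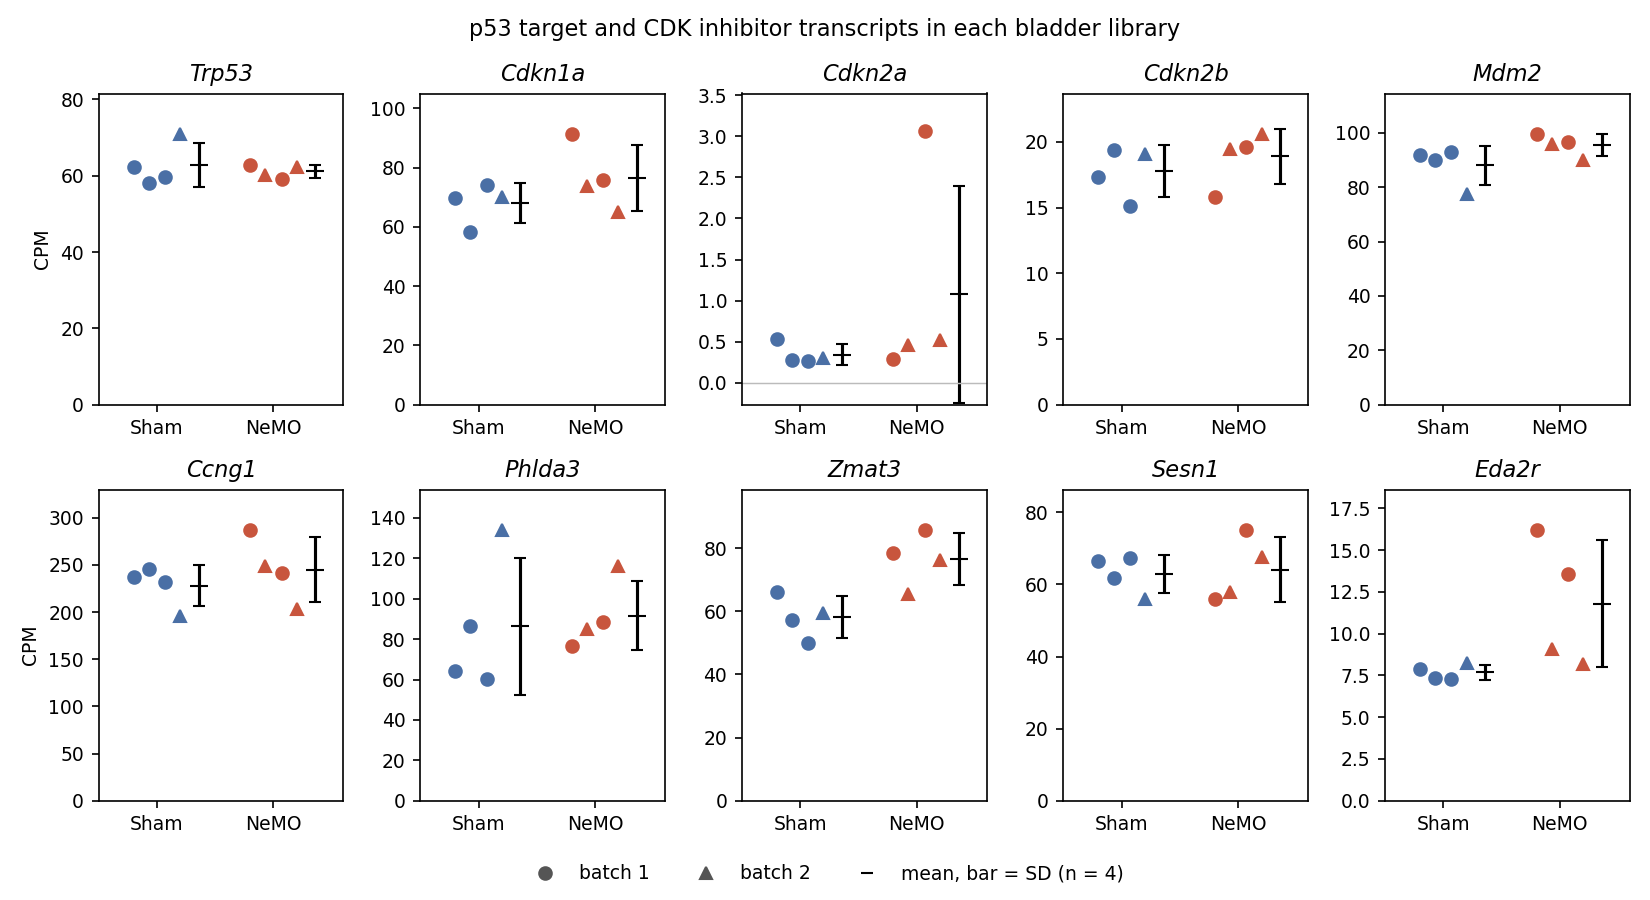
CPM of each gene in the 4 Sham and 4 NeMO libraries (circles batch 1, triangles batch 2), with the mean and SD of each group (n = 4). Cdkn2a is at 3.06 CPM in 1 NeMO library and at most 0.53 in the other 7 libraries, Eda2r is highest in the 2 NeMO libraries of batch 1, and the groups overlap in every panel.

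Trp53 itself was level between the groups. It measured 62.9, 60.2, 59.2 and 62.2 CPM in NeMO replicates 1 to 4 and 62.4, 58.2, 59.6 and 70.9 CPM in Sham replicates 1 to 4. Every NeMO value lay inside the Sham range, and the highest value of all was that of Sham replicate 4. NeMO differed from Sham by −0.06 on the log2 scale (SE 0.07, edgeR adjusted p = 0.69), with a 95% interval from −0.23 to 0.10. The p53 protein, which is controlled mainly by its breakdown, was not measured.

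Mdm2, the feedback inhibitor of p53, measured 99.5, 95.8, 96.5 and 89.8 CPM in NeMO and 91.7, 90.0, 92.9 and 77.3 CPM in Sham. NeMO replicates 1 to 3 stood above every Sham library and NeMO replicate 4 lay below 3 of the Sham libraries. The difference was small, with a log2 fold change of 0.16 (SE 0.07, edgeR unadjusted p = 0.0415 and adjusted p = 0.25). It was 0.10 within batch 1 and 0.27 within batch 2, where Sham replicate 4, the lowest library, is the only control.

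Cdkn1a, encoding p21, measured 91.3, 73.8, 75.9 and 64.9 CPM in NeMO and 69.8, 58.3, 74.2 and 70.0 CPM in Sham. The highest value came from NeMO replicate 1, and NeMO replicate 4 lay below 3 of the Sham libraries. The log2 fold change was 0.19 (SE 0.11, edgeR adjusted p = 0.383, 95% interval −0.06 to 0.44), which corresponds to a 1.14-fold difference with bounds of 0.963 and 1.36. It was 0.31 in batch 1 and −0.0058 in batch 2. Without NeMO replicate 1 it was 0.09, and without Sham replicate 4 it was 0.31.

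Among 13032 named genes with a mean of at least 1 CPM, the profiles nearest to Cdkn1a over the 8 libraries were those of Ipo7, Rere and Zc2hc1a. Their root mean square distances between standardised log2 CPM values were 0.356, 0.374 and 0.377, where 0 is an identical profile and the median gene lay at 1.31. Ipo7, an importin that carries proteins into the nucleus, shared the peak in NeMO replicate 1 (117 CPM) and the low value in Sham replicate 2 (86.8 CPM). Within the set the nearest to Cdkn1a was Eda2r (0.601), followed by Ccng1 (0.884) and Mdm2 (0.939). Cdkn2b (1.67), Phlda3 (1.5) and Sesn1 (1.46) were farther from it than the median gene.

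Cdkn2a was carried by a single library. It had 10, 14, 105 and 19 reads in NeMO replicates 1 to 4 and 18, 8, 9 and 8 reads in Sham, which is 0.287, 0.464, 3.06 and 0.526 CPM against 0.53, 0.277, 0.269 and 0.304 CPM. Sham replicates 2 to 4 lay below the minimum count of 10 used in the low-count filter. NeMO replicate 3 alone held 105 reads, more than the 86 of the other 7 libraries together, and its level was 5.77 times that of the next library. The other NeMO libraries lay within the Sham range, at 0.425 ± 0.124 CPM (SD, n = 3) against 0.345 ± 0.124 in Sham (SD, n = 4). The log2 fold change was 1.76 (SE 0.71, edgeR unadjusted p = 0.034 and adjusted p = 0.234) with all libraries and 0.15 (edgeR adjusted p = 0.932) without NeMO replicate 3. NeMO replicate 3 is also the library with the highest summed fibroblast and endothelial markers and the lowest adipocyte and smooth muscle markers. Its endothelial sum was 460 CPM, against 269 to 380 elsewhere. The fibroblast sum was carried by the collagen genes Col3a1 (10536 CPM) and Col1a1 (5092 CPM). The other fibroblast markers were mixed. Lum was highest in that library (957 CPM, at most 743 elsewhere), as were Dcn (2863, at most 2813) and Pdgfra (167, at most 162). Dpt (143 CPM) and Pi16 (264 CPM) were lowest there. Its 9 leukocyte markers summed to 280 CPM, below the 311 CPM of Sham replicate 1, and its proliferation genes summed to 215 CPM, inside the range of the other libraries. The part of tissue makeup in the Cdkn2a value was not tested.

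Cdkn2b, the neighbouring INK4 gene, did not share that peak. It measured 15.8, 19.5, 19.6 and 20.6 CPM in NeMO and 17.3, 19.4, 15.1 and 19.1 CPM in Sham. NeMO replicates 2 to 4 were just above the highest Sham library, and NeMO replicate 1 was among the lowest. On the log2 scale the difference was 0.05 (SE 0.12, edgeR adjusted p = 0.868, 95% interval −0.22 to 0.31).

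Zmat3 encodes a zinc finger protein that binds RNA and is a direct p53 target. It measured 78.4, 65.6, 85.7 and 76.1 CPM in NeMO and 66.0, 57.2, 49.8 and 59.5 CPM in Sham. Apart from NeMO replicate 2, which lay just under Sham replicate 1, the groups were separate. The fold difference was 1.34 (log2 fold change 0.42, SE 0.11, 95% interval 0.18 to 0.66). It missed the threshold in edgeR (adjusted p = 0.113) and passed in DESeq2 (adjusted p = 0.0224). The difference was positive in both batches (0.51 in batch 1, 0.26 in batch 2), and leaving out any 1 library gave 0.35 to 0.51.

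Eda2r encodes a receptor of the TNF receptor family that binds ectodysplasin A2 and is induced by p53. It measured 16.2, 9.07, 13.6 and 8.16 CPM in NeMO and 7.86, 7.34, 7.27 and 8.24 CPM in Sham. Sham libraries were close together (7.68 ± 0.458 CPM), whereas NeMO replicates 1 and 3 stood far above them and NeMO replicate 4 lay within their range. The log2 fold change was 0.66 (SE 0.19, 95% interval 0.24 to 1.08), with an adjusted p of 0.133 in edgeR and 0.0298 in DESeq2. The high libraries are both NeMO libraries of batch 1, so the difference was 0.99 there and 0.07 in batch 2. The difference between the batches was −0.93 (SE 0.26, edgeR unadjusted p = 0.00742), and it did not pass after adjustment (edgeR adjusted p = 0.93). For this interaction 0 of 16370 genes passed and 4.63% had p under 0.05 before adjustment. NeMO replicates 1 and 3 also had the lowest summed urothelial markers (5336 and 5579 CPM, against 6506 to 8500 elsewhere) and the highest correlation with transcript length described below, and the part of these in the Eda2r values was not tested.

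Ccng1 encodes cyclin G1, a p53 target that takes part in the control of Mdm2. It measured 287, 249, 242 and 203 CPM in NeMO and 237, 246, 232 and 196 CPM in Sham. The lowest library of each group was replicate 4, from batch 2, and the groups overlapped widely. Its log2 fold change was 0.17 (SE 0.09, edgeR adjusted p = 0.357), and its value within the batches was 0.15 and 0.21. Of the 2 genes with an element in the printed windows, neither Cdkn1a nor Ccng1 passed the test, beside 0.0733% of all genes tested. With so few passing, this says nothing about genes with an element.

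Phlda3, which encodes a p53-induced inhibitor of the kinase Akt, varied more between libraries than between the group means. It measured 76.8, 85.1, 88.3 and 116 CPM in NeMO and 64.2, 86.3, 60.4 and 134 CPM in Sham. The highest library of each group was replicate 4, both of batch 2. The remaining library of batch 2, NeMO replicate 2, lay below NeMO replicate 3 and Sham replicate 2 of batch 1. The log2 fold change of Phlda3 was −0.0047 (SE 0.18, edgeR adjusted p = 0.992) with a 95% interval from −0.41 to 0.40. The direction depended on the libraries, with 0.23 in batch 1 and −0.41 in batch 2, and it was above 0 with DESeq2 (0.00061) or with RLE scaling (0.00039).

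Sesn1 encodes sestrin 1, which lowers signalling of the growth kinase mTORC1 under stress. It measured 55.9, 57.8, 75.1 and 67.7 CPM in NeMO and 66.4, 61.7, 67.4 and 56.1 CPM in Sham. NeMO replicates 3 and 4 were above, and NeMO replicate 1 below, every Sham library. Its log2 fold change was 0.06 (SE 0.11, edgeR adjusted p = 0.80), and it was −0.04 without NeMO replicate 3.

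**Figure D3:**
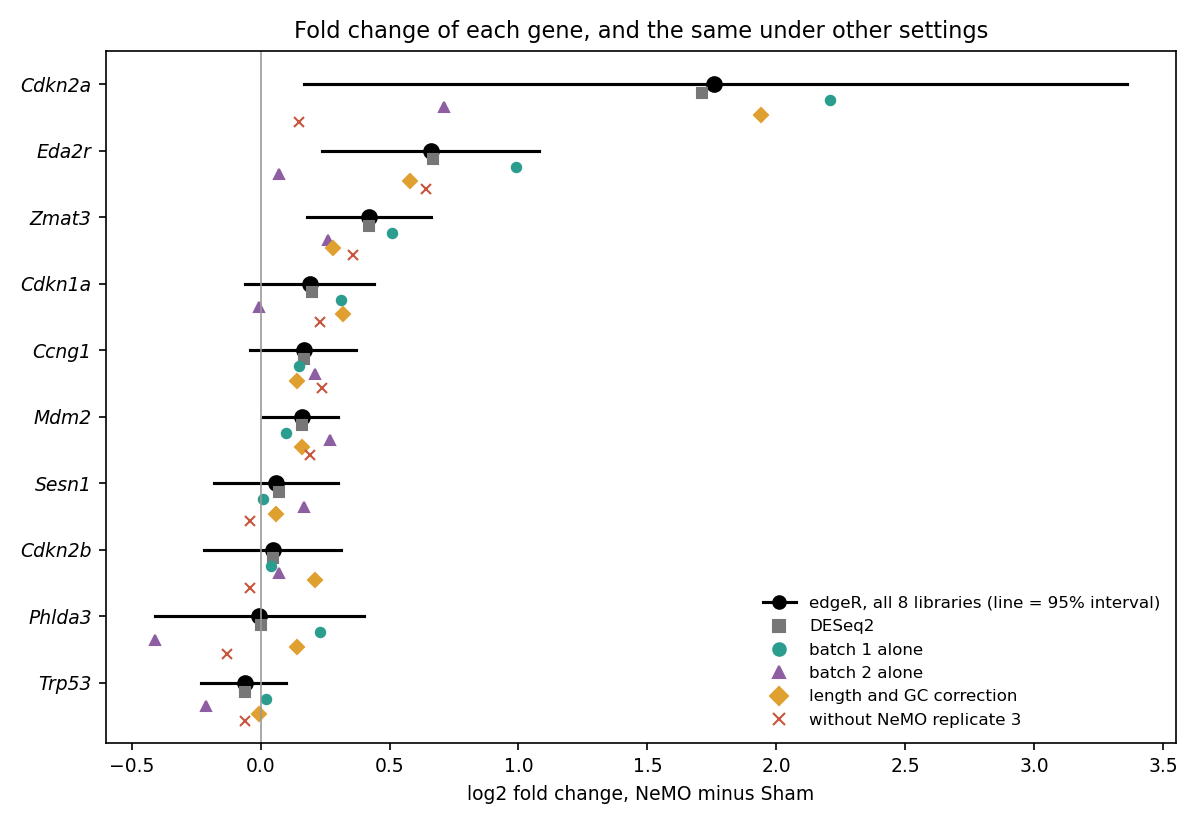
Log2 fold change (NeMO minus Sham) of each gene with its 95% interval from edgeR (black), and the value from DESeq2, within each batch, with a length and GC correction, and without NeMO replicate 3. Cdkn2a moves from 1.76 to 0.15 without that library, Eda2r is at 0.99 in batch 1 and 0.07 in batch 2, and Zmat3 stays above 0 in each setting drawn.

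The wider p53 response did not move as a block. Of 44 other p53 targets, 22 were higher and 22 lower, and their median was 0.0021 on the log2 scale. None passed edgeR, where 3 were higher and 0 lower before adjustment (p under 0.05), beside 9.38% and 9.14% of all genes. DESeq2 passed 2, Zfp365 and Apaf1, both higher, beside 3.32% of all genes. Zfp365 had a mean of 4.94 ± 0.97 CPM after obstruction and 2.42 ± 0.894 CPM in sham-operated mice (log2 difference 1.25, SE 0.22, edgeR adjusted p = 0.0691, DESeq2 adjusted p = 3.51e-05) and was the only gene of the 44 without overlap between the groups, beside 4.39% of all genes higher and 3.81% lower in that way. Apaf1, the scaffold of the apoptosome that activates caspases, measured 23.7 ± 5.11 and 17.5 ± 2.13 CPM (0.51, SE 0.13, edgeR adjusted p = 0.113). The abundant targets were close to level, with Perp, a desmosomal membrane protein of epithelia, at 441 ± 18.4 and 432 ± 52.5 CPM (0.02, SE 0.10). Ei24 stood at 222 ± 32.8 and 234 ± 15.8 CPM (−0.15, SE 0.08).

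Among genes that modify or control p53, 17 of the 26 tested were higher and the median was 0.11 (log2). None passed edgeR, with 9 higher and 0 lower before adjustment (p under 0.05), beside 9.38% and 9.14% of all genes. DESeq2 passed 4, all higher (3.32% of all genes), and 5 were higher without overlap (4.39% of all genes). Hipk2, a kinase that phosphorylates p53, stood at 30.3 ± 5.38 against 18.4 ± 3.38 CPM (0.72, SE 0.18, edgeR adjusted p = 0.112). The acetyltransferase gene Crebbp measured 53.6 ± 2.84 and 43.3 ± 4.48 CPM (0.34, SE 0.08, edgeR adjusted p = 0.109), and Huwe1, a ubiquitin ligase, 490 ± 13.1 and 426 ± 25.4 CPM (0.21, SE 0.08). The p53 relative Trp63, a marker of basal urothelium, stood at 222 ± 12.1 and 207 ± 16.5 CPM (0.08, SE 0.08). These genes have long transcripts (median 4395.5 nucleotides, against 3207 over all genes tested), and their median was 0.06 once length and GC content were modelled.

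Of the 4 cyclin-dependent kinase inhibitors outside the set, 1 was higher and 3 lower (median −0.18). With length and GC content modelled the median was −0.05. None passed edgeR, where 1 was lower and 0 higher before adjustment (p under 0.05), beside 9.14% and 9.38% of all genes. DESeq2 passed 1, Cdkn1c, which was lower, beside 2.5% of all genes. Cdkn1c, the imprinted gene for p57, was lower in NeMO at 12.9 ± 2.68 against 17.5 ± 4.66 CPM (−0.58, SE 0.13, edgeR adjusted p = 0.0994, DESeq2 adjusted p = 0.0081). Cdkn1b, encoding p27, measured 129 ± 11.5 and 115 ± 10.8 CPM (0.16, SE 0.10), and Cdkn2c, another INK4 gene, 14.6 ± 1.65 and 17.6 ± 2.84 CPM (−0.30, SE 0.14).

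Downstream of the inhibitors, G1 cyclins, their kinases, RB and E2F genes were higher in 12 of 18 cases. Their median was 0.10, and 0.03 without NeMO replicate 3. None passed edgeR, where 1 was lower and 0 higher before adjustment (p under 0.05), beside 9.14% and 9.38% of all genes. Ccnd1, the most abundant cyclin of the list, measured 231 ± 35.3 and 193 ± 35.6 CPM (0.27, SE 0.16), and Ccnd2 188 ± 24.5 and 179 ± 19.5 CPM. Ccnd3 was lower without overlap, beside 3.81% of all genes, at 73.9 ± 7.75 against 97.7 ± 11.9 CPM (−0.42, SE 0.11, edgeR adjusted p = 0.117). It alone of the 18 passed DESeq2 (adjusted p = 0.0275), beside 2.5% of all genes lower. Cdk2 measured 28.3 ± 3.84 and 24.3 ± 0.906 CPM (0.24, SE 0.11).

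Proliferation genes, which p21 and RB proteins repress when cells leave the cycle, were mostly lower in NeMO, 19 of 22, with a median of −0.27. None passed edgeR, where 6 were lower and 0 higher before adjustment (p under 0.05), beside 9.14% and 9.38% of all genes. DESeq2 passed 1, Mcm5, which was lower, beside 2.5% of all genes. The lowest p belonged to subunits of the replicative helicase, Mcm5 (8.26 ± 1.5 against 11.7 ± 1.28 CPM, −0.41, SE 0.12, edgeR adjusted p = 0.133) and Mcm3 (12.0 ± 1.79 against 16.0 ± 2.33 CPM, −0.39, SE 0.15). The abundant Mcm4 and Mcm6 stood at −0.13 (SE 0.12) and 0.15 (SE 0.09). The list median was −0.41 in batch 1, −0.05 in batch 2 and −0.58 with no batch term, and Sham replicate 1 had the highest summed level of these genes (271 CPM) as well as of leukocyte markers (311 CPM).

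Repressors of the INK4 locus were level, with 6 of 12 higher and a median of 0.01. None had an unadjusted p under 0.05 in edgeR, beside 9.38% of all genes higher and 9.14% lower. None passed in DESeq2, beside 3.32% of all genes higher and 2.5% lower. The T-box repressors Tbx2 (0.03, SE 0.10) and Tbx3 (−0.02, SE 0.12) were the most abundant, Ezh2 of the Polycomb complex stood at 0.27 (SE 0.12) and Id1 at −0.35 (SE 0.18). In NeMO replicate 3, where Cdkn2a was highest, the 12 genes had a median log2 deviation of −0.01 from their means.

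Genes that senescent cells secrete or lose were evenly split, with 12 of 23 tested genes higher and a median of 0.03 (−0.03 to 0.14 with 1 library left out). The list joins genes that are secreted with genes that are lost, so this count and median cannot show whether the pattern is present. None of the 23 genes passed edgeR, where 2 were higher and 2 lower before adjustment (p under 0.05), beside 9.38% and 9.14% of all genes. DESeq2 passed 1 higher, Timp1, and 2 lower, Igfbp3 and Igfbp5, beside 3.32% and 2.5% of all genes. Timp1, an inhibitor of matrix metalloproteinases, stood at 14.2 ± 7.76 against 6.21 ± 2.22 CPM (1.27, SE 0.43, edgeR adjusted p = 0.191, DESeq2 adjusted p = 0.021), with its highest level in NeMO replicate 3 (23.9 CPM). Igfbp5, a binding protein of insulin-like growth factors, was lower without overlap, beside 3.81% of all genes. It stood at 287 ± 41.7 against 420 ± 25 CPM (−0.56, SE 0.12, edgeR adjusted p = 0.0867, DESeq2 adjusted p = 7.78e-04). Igfbp7 measured 537 ± 141 and 477 ± 30.6 CPM (0.19, SE 0.18) and the angiogenic factor gene Vegfa 106 ± 10.9 and 88.2 ± 5.45 CPM (0.28, SE 0.09, edgeR adjusted p = 0.159, DESeq2 adjusted p = 0.0823). Il6 and Il1a, the cytokine genes most often named in this secretory pattern, had too few reads to be tested.

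**Figure D4:**
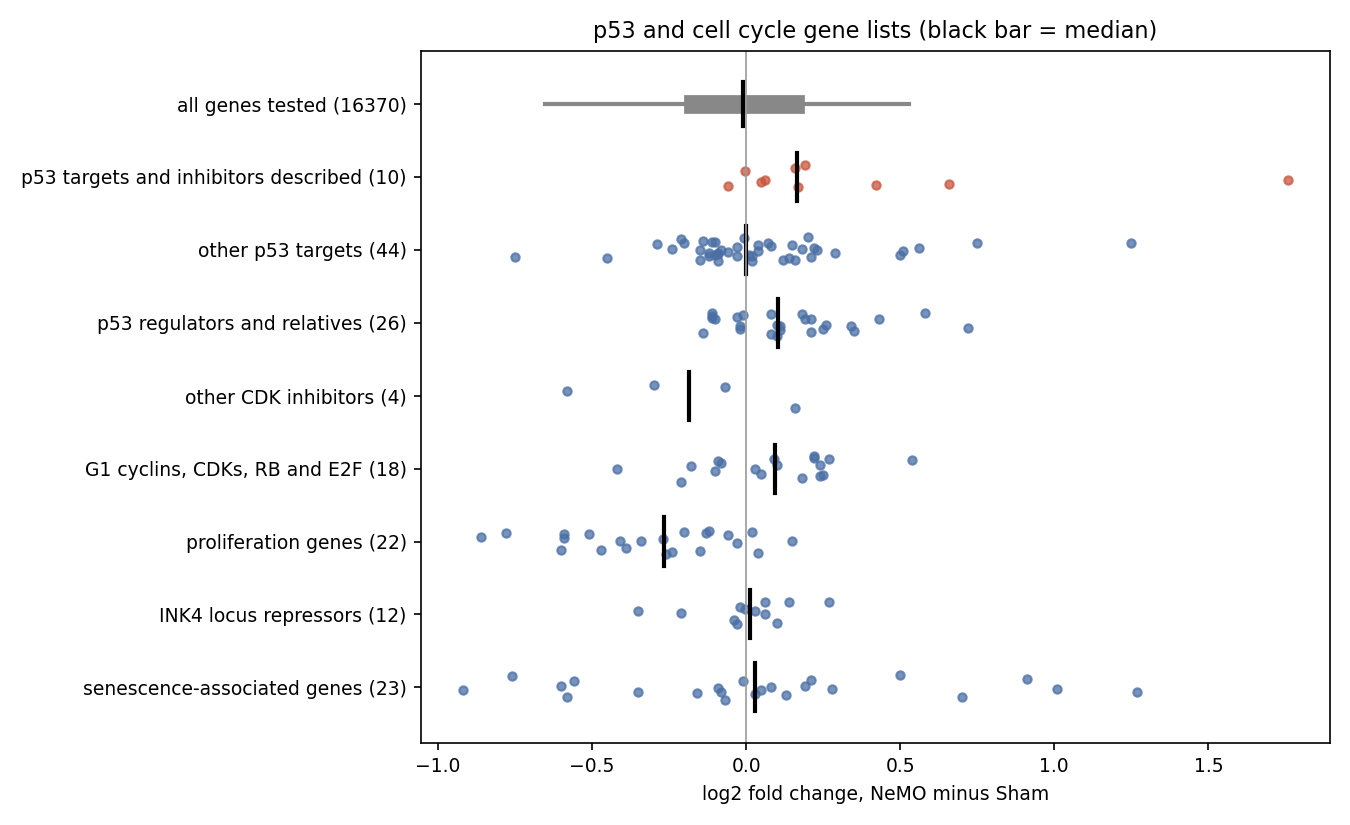
Log2 fold change (NeMO minus Sham) of every tested gene of each list, with the number tested in parentheses and the median as a black bar; the grey bars of all genes span the 5th to 95th percentile (thin, −0.65 to 0.53) and the 25th to 75th (thick). The set described has a median of 0.16, the other p53 targets 0.0021 and the proliferation genes −0.27.

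A trend with transcript length ran beside these differences. Each library's log2 levels, taken relative to the mean of the gene, were ranked against the length of its longest transcript. The Spearman correlation over genes lay between 0.00177 and 0.262 for NeMO libraries and between −0.268 and −0.00195 for Sham libraries, with the highest values in NeMO replicates 1 (0.262) and 3 (0.197). Zmat3 and Eda2r have the longest transcripts of the set, 7797 and 4752 nucleotides. With length and GC content modelled, their log2 fold changes were 0.28 (edgeR adjusted p = 0.316) and 0.58 (edgeR adjusted p = 0.277). The same correction gave 0.32 for Cdkn1a and 0.21 for Cdkn2b, whose transcripts are short (2080 and 1390 nucleotides).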

How the data were processed

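Each library has 1 deposited file of raw counts by symbol, with no header. Trimmomatic, STAR, featureCounts, DESeq2 and mm10 are named, without versions, in the submitters' processing notes. The labels' protocols state Trizol extraction, DNase, a directional kit and single-end reads, and the labels give polyA RNA. The sources used here do not give the annotation, the strand setting or the handling of reads with several matches. Groups come from the titles. The 10 genes and all lists were chosen with earlier results of these data known.

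In R 4.3.3, edgeR 4.0.16 kept 16370 genes (filterByExpr, minimum count 10, minimum total 15), scaled by TMM and fitted batch and group (robust quasi-likelihood F-test, two-sided, Benjamini-Hochberg over all genes, threshold 0.05). DESeq2 1.42.0 was an alternative. SE is the log2 fold change divided by the root of F. The planned permutation test for genes under the filter was not needed. Named genes are the 10, per list up to 4 past the threshold or else the 2 most abundant and the 2 with the smallest p, and the 3 profiles nearest to Cdkn1a. Il6, Il1a, Timp1, Igfbp3 and the markers named were chosen after their values were seen. Tigar and Pidd1 were matched as 9630033F20Rik and Lrdd, and Adgre1 as Emr1. Lengths come from GENCODE M21 (98.9% of genes tested). On simulated data for NeMO against Sham (5 runs of 16370 genes), the test found 27.7%, 73.5% and 97.7% of genes changed by 0.5, 1 and 2 (log2), and the 95% intervals held the true value for 95.5%, 97.1% and 95.3%. Each simulated gene had a single mean and a spread set by abundance alone, with no batch, length or tissue differences. The shares found in the real libraries may therefore be lower.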

Additional observations from a re-analysis of the deposited data

Results flagged for a closer look

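Cdkn2a in NeMO replicate 3 measured 3.06 CPM, and the gap to the next NeMO library was 0.914 of the range of the 4 values, above the 95% limit of Dixon's test for 4 values. Cdkn2a in Sham replicate 1 measured 0.53 CPM, with a gap of 0.868 of the range, although these Sham values rest on 8 to 18 reads. Each of the 10 genes was examined in both groups, and chance alone passes this limit in about 1 of 20 groups of values.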

How the results depend on the processing

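The number of genes past the threshold, 12, was 953 with DESeq2, 172 without the low-count filter, 7 without the batch term, 7 in batch 2 alone, and 0 in batch 1 alone or with the replicate block (edgeR, 1756 and 2648 at an unadjusted p under 0.05), and it ran from 0 to 652 when 1 library was left out. Correlations between deviations of same-numbered libraries ran from −0.00958 to 0.324, against −0.249 to 0.255 for libraries of different number. The libraries numbered 4, which gave the highest value, share batch 2. By these values 2 of 4 NeMO libraries were closest to the Sham library of their number. So few values cannot decide whether same-numbered libraries form pairs. Of the 10 genes, 2 passed with DESeq2 (Zmat3 and Eda2r) and 0 in every other setting. At unadjusted p under 0.05 in edgeR the count of 4 became 2 without the batch term, with the replicate block and in batch 1. It was 3 without the low-count filter and 5 with the length and GC correction, and it ran from 2 to 4 with 1 library left out. For batch 2 alone, which has a lone Sham library, this count is not given, so the range does not cover that setting. Between 6 and 10 of the 10 genes were higher when 1 library was left out, and their median ran from 0.13 to 0.19. Of 170 values over 17 alternatives, 152 kept their direction and side of the threshold. The direction turned for Trp53 (0.02 in batch 1 and without Sham replicate 4, −0.11 to 0.02 with 1 library left out), Cdkn1a (−0.0058 in batch 2), Cdkn2b (−0.04 without NeMO replicate 3, −0.0045 without Sham replicate 3), Sesn1 (−0.04 without NeMO replicate 3) and Phlda3 (0.00061 with DESeq2, 0.00039 with RLE scaling, 0.0024 without the filter, 0.09 without the batch term, 0.14 with the replicate block and with the length and GC correction, 0.23 in batch 1 and without Sham replicate 4, 0.10 without NeMO replicate 2, 0.07 without Sham replicate 2, −0.13 to 0.23 with 1 library left out). The median of the other p53 targets was 0.06 after the length and GC correction. The cause of these shifts was not tested. Batch 2 has a lone Sham library, whose spread is taken from its 2 NeMO libraries, and Cdkn2a rests on 8 to 19 reads outside NeMO replicate 3.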
